A study of Mus musculus with 10 samples.

Results

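The control state of mouse embryonic stem cells carrying a hairpin against luciferase (shLuc) or against green fluorescent protein (shGFP) was described gene by gene. A gene was taken as expressed when neither control value had a failed status and the mean of both was at least 1 FPKM (fragments counted per kilobase of transcript and scaled to library size), which gave 12690 of the 26857 entries of the expression table. Of the rest, 57 entries had a failed status in a control and 14110 lay under the minimum, and 7475 of all entries were at 0 FPKM in both controls. The cells were V6.5, a mouse embryonic stem cell line, grown without feeder cells on gelatin in medium with 15% serum and 1000 U/ml leukemia inhibitory factor (LIF). All groups, controls included, had been infected with a lentivirus, selected for 3 days in puromycin at 1 µg/ml and kept for 24 h without it before polyadenylated RNA was sequenced in read pairs. The groups differed in the hairpin: shLuc and shGFP were the controls, and shFox2-1 and shFox2-2 targeted Rbfox2, a splicing regulator. Each hairpin had 2 libraries from separate infections, but the deposited table gave 1 pooled value per gene and hairpin, with a lower and an upper bound. So each control had 1 value per gene, no spread between libraries could be computed and no test was possible.

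Embryonic stem cells divide rapidly and keep the capacity to form every tissue of the embryo, and a network of transcription factors around Pou5f1 (Oct4), Sox2 and Nanog holds them in this state while LIF is present. Short hairpin RNAs are processed by the cell's microRNA machinery and loaded into Argonaute proteins. A hairpin against luciferase or green fluorescent protein has no intended target in a mouse cell, so such hairpins are used as controls for infection, selection and the use of that machinery.

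Sequencing depth was unknown, because FPKM values were given without counts. Rbfox2 had overlapping intervals in the controls, at 24.7 FPKM in shLuc (21.9 to 27.4) and 23.3 FPKM in shGFP (20.6 to 26.0). All 10 markers of embryonic stem cells that were examined were expressed, from 15.0 FPKM for Klf4 to 452 FPKM for Dppa5a, and their summed level was 1461 FPKM in shLuc and 1624 FPKM in shGFP. The short sets of defining markers of other cell types were low: none of 5 mesoderm markers, 1 of 5 endoderm markers, 1 of 5 trophoblast markers, 3 of 8 fibroblast or feeder markers and 4 of 6 neural markers reached the minimum. Within these sets the highest fibroblast marker was Thy1 at 2.14 FPKM, Lum was at 0 in both controls, and the highest neural marker was Nes at 9.09 FPKM. Longer lists of such markers held higher genes: of 18 fibroblast and feeder genes 8 were expressed, led by Fn1 at 102 FPKM, Sparc at 53.6 FPKM and Tagln at 23.9 FPKM, and of 16 trophoblast and epithelial genes 9 were, led by Krt8 at 20.1 FPKM. Tubb3 led the neural and ectoderm list at 29.7 FPKM (9 of 19 expressed), Lamb1 the endoderm list at 15.4 FPKM (7 of 18) and Pecam1 the mesoderm and blood list at 11.3 FPKM (6 of 20). The summed level of the fibroblast and feeder list was 202 FPKM in shLuc and 210 FPKM in shGFP, and the part of other cells in the results was not tested. In bulk RNA, fewer cells of a type and less RNA per cell cannot be told apart.

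The abundance landscape was steep. The median expressed gene stood at 7.81 FPKM, the 5th percentile at 1.32 FPKM, the 95th at 83.2 FPKM and the 99th at 249 FPKM. The 100 most abundant genes held 17.4% of the summed FPKM, the top 1000 held 52.8%, and 868 genes held 50% of it. Above 200 FPKM lay 181 genes with 24.3% of the summed FPKM, while the 1701 genes between 1 and 2 FPKM together held 0.873%.

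The most abundant entry was Eef1a1, the translation elongation factor that brings aminoacyl-tRNA to the ribosome (chromosome 9, 78326260 to 78329531 on the mouse build mm9), at 1462 FPKM in shLuc (1297 to 1628) and 1563 FPKM in shGFP (1462 to 1665). Eef1b2, which recharges that factor, stood at 856 and 919 FPKM. The constitutive chaperones Hspa8 (794 and 854 FPKM) and Hsp90ab1 (650 and 744 FPKM) followed, then Ptma (685 and 671 FPKM), the ribosomal protein gene Rpl8 (579 and 691 FPKM), the chromatin protein gene Hmga1 (607 and 654 FPKM) and the prolyl isomerase gene Ppia (599 and 610 FPKM). Among the 9 protein-coding entries of the top 25 only Rpl8 had intervals that did not overlap. Second among all entries was Eno1b, an enolase gene closely related to Eno1, at 1110 and 1181 FPKM. It was listed under a predicted-gene name with a locus span of 3072 bases. Eno1 itself stood at 369 and 388 FPKM, and the values of both are uncertain where reads could belong to either gene.

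Pseudogene entries filled the other 16 places of the top 25, and 57 of the top 100. They were 1529 of the expressed entries (12.0%) and held 28.3% of the summed FPKM, with a median locus span of 1643 bases. Examples were Tpt1-ps3 (949 and 1019 FPKM), Ftl1-ps1 (718 and 784 FPKM), Rpl19-ps11 (576 and 645 FPKM), Rps24-ps3 (525 and 577 FPKM) and Mif-ps (499.6 and 594 FPKM), the last of which had separate intervals. Processed pseudogenes are near copies of abundant mRNAs, so the reads of parent and copy cannot always be told apart, and the values of both are uncertain. Without predicted, pseudogene and clone-named entries, the 100 most abundant genes held 17.5% of the summed FPKM.

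**Figure D1:**
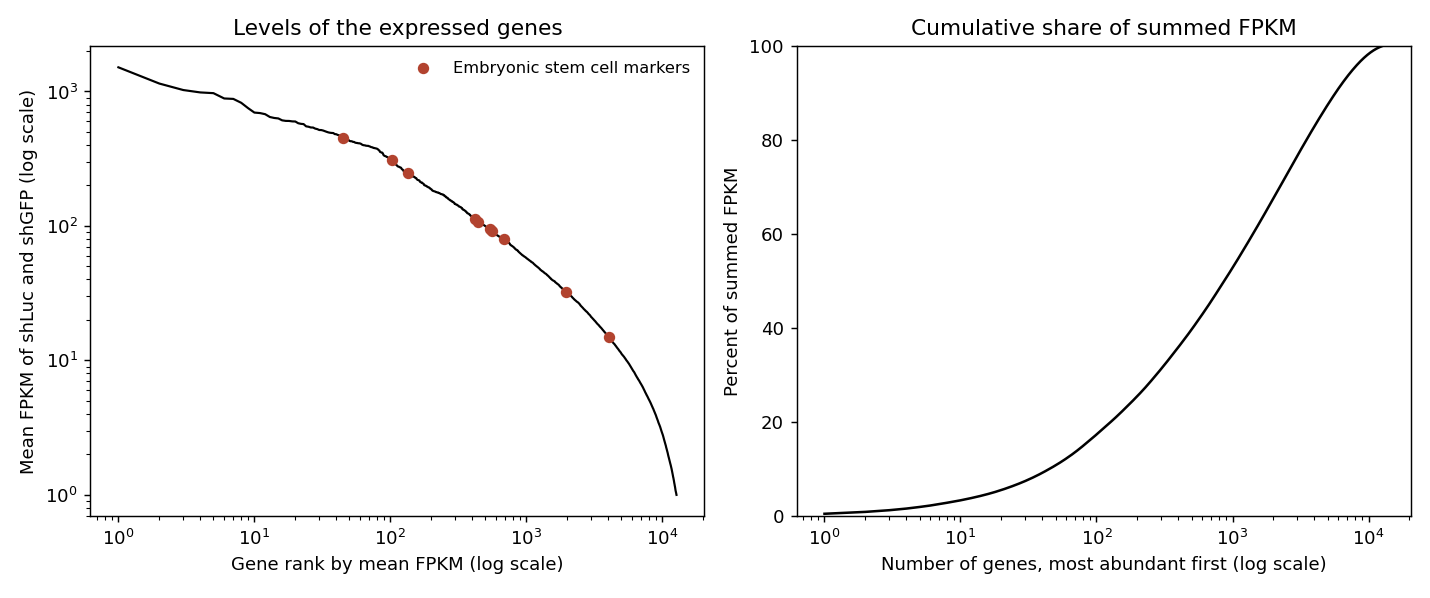
Left: mean FPKM of shLuc and shGFP (log axis) against gene rank (log axis) for the 12690 expressed genes, with the 10 embryonic stem cell markers as red points. Right: percent of summed FPKM held by the most abundant genes, added in order of level (log axis). The markers lie between 15.0 and 452 FPKM, and the curve passes 50% at 868 genes.

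The pluripotency genes were among the abundant transcripts in both controls. All 30 listed factors were expressed, with a median of 29.7 FPKM. Pou5f1 stood at 285 FPKM in shLuc (261 to 309) and 336 FPKM in shGFP (313 to 359), a difference that the intervals separated. Utf1, a chromatin-bound factor of undifferentiated cells, was at 93.4 FPKM (84.7 to 102) and 122 FPKM (111 to 133), and Trim28, a corepressor that silences retroviral sequences, at 239 FPKM (219 to 260.0) and 287 FPKM (269 to 306). For these 3 genes shGFP was the higher control, but on a scale that places the median gene at no difference, described below, only Utf1 was still separated. For Sox2 (89.8 and 94.2 FPKM), Nanog (77.9 and 81.5 FPKM), Zfp42 (109.6 and 116 FPKM), Esrrb (30.8 and 34.2 FPKM) and Klf4 (15.0 and 15.0 FPKM) the intervals overlapped. Tdgf1, the coreceptor of NODAL, stood at 243 and 249 FPKM, and Lin28a, an RNA-binding protein that blocks let-7 maturation, at 89.4 and 99.3 FPKM, again with overlapping intervals.

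Across all expressed genes the controls lay close together. The Pearson correlation of log2(FPKM + 1) over the 12690 genes was 0.993 and the Spearman correlation 0.991, given as a description, since genes are not replicates. The difference between the hairpins was under 1.25-fold for 11046 genes (87.0%) and at least 1.5-fold for 355, of which 7 were listed at 0 in 1 control. The balance was not even: 8570 genes (67.5%) were higher in shGFP, the median ratio of shGFP to shLuc was 1.06, and the median difference in log2(FPKM + 1) was 0.07 with an SD of 0.19 over genes. This tilt grew with abundance. Among the 1192 genes of at least 50 FPKM, 85.6% were higher in shGFP, with a median log2 difference of 0.11, against 0.01 for genes between 1 and 2 FPKM.

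The deposited intervals did not overlap for 151 genes, 1.19% of the expressed genes. In 127 of them, 1.00% of the expressed genes, shGFP lay above shLuc, and in 24, 0.189%, it lay below. With shGFP divided by the median ratio, which places the median gene at no difference, the split was turned around: 23 genes (0.181%) were above and 69 (0.544%) below, 0.725% in all. All 23 genes were among the 127 and all 24 of the first set were among the 69. So 47 genes were separated in the same direction on both scales. Centring can only lower shGFP values, so the 24 could not lose their separation, and only the genes above could. The other 104 genes above in shGFP were separated only on the deposited scale, and 45 genes were below only on the centred scale. By a less strict rule, in which the interval on the difference left out 0, 680 genes (5.36%) were above and 111 (0.875%) below, 6.23% in all. The labels and headers do not say how the hairpins had been scaled to each other.

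The genes above in shGFP had a median level of 54.6 FPKM and a median ratio of 1.25, and 16 of 127 differed by at least 1.5-fold. Those below had a median level of 9.23 FPKM and a median ratio of shLuc to shGFP of 1.37, and 11 of 24 differed by at least 1.5-fold. The 16 include 2 entries listed at 0 in shLuc and the 11 include 4 listed at 0 in shGFP. Both median ratios leave these entries out. The intervals narrow as levels go up. The bounds lay a median of 39.1% from the FPKM value in shLuc and 40.8% in shGFP between 1 and 2 FPKM, and 8.45% and 7.28% above 200 FPKM. The share of genes with separate intervals went from 0.470% to 10.5% between these classes. The median ratio of shGFP to shLuc also went from 1.013 to 1.081, and on the centred scale the shares were 0.412% and 0.552%.

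**Figure D2:**
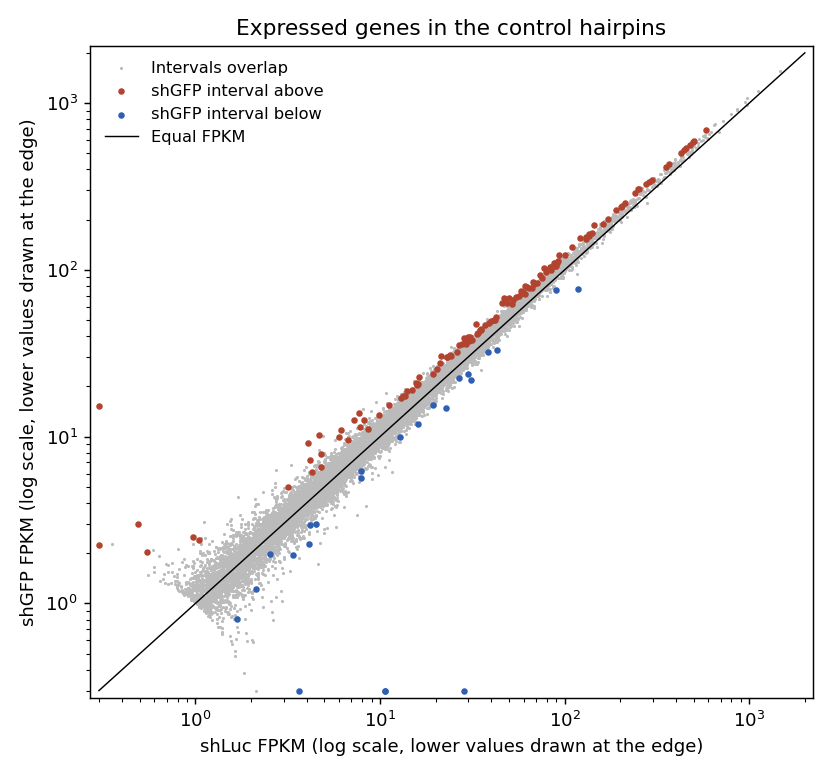
FPKM in shGFP against FPKM in shLuc for the 12690 expressed genes (both axes log scale, values at or near 0 drawn at the edge), with the line of equal values. The 127 genes with the shGFP interval above (red) follow the upper rim of the cloud, most of them at high FPKM, and the 24 below (blue) lie at lower levels.

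Of the 23 genes above in shGFP on both scales, 21 had a value above 0 in both controls, with ratios from 1.24 to 6.14. Magohb, a core subunit of the exon junction complex (listed under a clone name, chromosome 6, 131234407 to 131243264 on mm9), was at 4.09 FPKM in shLuc (2.41 to 5.76) and 9.20 FPKM in shGFP (6.12 to 12.3), a ratio of 2.25. In shFox2-1 and shFox2-2 it stood at 11.8 and 10.4 FPKM, and both of their intervals lay clear of shLuc. Magohb nearly matches its paralog Magoh in protein sequence, and its value is uncertain where reads could belong to either gene. Ndufa11, a subunit of respiratory complex I, was at 7.70 FPKM in shLuc (5.81 to 9.58) and 13.8 FPKM in shGFP (10.9 to 16.6), with 14.2 and 11.6 FPKM in the knockdown hairpins. Tex19.1, a germ cell gene that restrains transposons, was at 7.18 FPKM in shLuc (5.71 to 8.65) and 12.5 FPKM in shGFP (10.2 to 14.8), with 16.6 and 10.5 FPKM in the knockdown hairpins. In these 3 genes shLuc was the low value of the 4 hairpins, although the interval of shFox2-2 overlapped it for Ndufa11 and Tex19.1.

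In a second set of genes above on both scales, shGFP stood apart. Rps2, a protein of the small ribosomal subunit, was at 46.7 FPKM in shLuc (41.0 to 52.5) and 67.4 FPKM in shGFP (59.3 to 75.6), against 45.7 and 47.3 FPKM in the knockdown hairpins. Upp1, which splits uridine for salvage, was at 45.7 FPKM (40.6 to 50.8) and 63.5 FPKM (56.6 to 70.5), against 45.0 and 38.4 FPKM. For both genes shGFP was the high value of the 4 hairpins and the other 3 overlapped each other. Rps2 shares its locus with another entry and has many near copies in the genome, so its value is uncertain. Cx3cl1, a membrane-bound chemokine named here after its values were seen, had the largest ratio among genes above 0 in both controls: 0.490 FPKM in shLuc (0 to 1.01), 3.01 FPKM in shGFP (1.41 to 4.61), and 0.410 and 0.343 FPKM in the knockdown hairpins.

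Several further genes above on both scales were abundant. Dnmt3l, the cofactor of the de novo DNA methyltransferases, was at 121 FPKM in shLuc (110.4 to 131) and 156 FPKM in shGFP (144 to 168), and higher still, at 182 and 171 FPKM, in the knockdown hairpins. Fth1, the ferritin heavy chain that stores iron, was at 145 FPKM (132 to 158) and 187 FPKM (170.4 to 203). Lmnb1, a lamin of the nuclear envelope, was at 83.3 FPKM (76.2 to 90.4) and 104 FPKM (95.8 to 111), and Actn4, which crosslinks actin filaments, at 62.4 FPKM (57.1 to 67.7) and 78.5 FPKM (72.7 to 84.3). The ratios of these genes lay between 1.24 and 1.29, and their intervals were narrow enough to lie apart. Gldc, the glycine decarboxylase of the glycine cleavage system, was at 28.8 and 37.0 FPKM. Ski, a repressor of TGF-beta signalling, was at 9.83 and 13.4 FPKM, and the small GTPase gene Rhob at 4.78 and 7.84 FPKM. Utf1 also belonged to this set, as did the entry of the antisense RNA Rab10os (4.65 and 10.3 FPKM), uncertain without strand information, and the predicted entry Gm8023 (6.16 and 10.9 FPKM). Lmnb1, Gldc and Ski were named after their values were seen.

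Among the other largest differences, 6 genes were above on the deposited scale only. Znhit2 was at 4.16 and 7.21 FPKM, Rpusd1 at 6.01 and 9.92 FPKM, Chac1 at 8.16 and 12.5 FPKM, Tmem234 at 33.0 and 47.4 FPKM, Thap4 at 7.83 and 11.5 FPKM, and the linker histone gene H1f10 at 21.3 and 30.3 FPKM. Their ratios were as large as those of several genes kept on both scales, but their intervals were wide.

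All 24 genes below in shGFP were also separated on the centred scale, which was certain because centring can only lower shGFP values. Of the 24, 20 had a value above 0 in both controls, with ratios of shLuc to shGFP from 1.18 to 2.08. Mlf2 (chromosome 6, 124881392 to 124886162 on mm9) was the most abundant of them, at 118 FPKM in shLuc (108.6 to 128) and 76.6 FPKM in shGFP (68.9 to 84.3), a ratio of 1.54. It stood at 116 and 131 FPKM in the knockdown hairpins, so shGFP alone was low. Samhd1, a hydrolase that limits deoxynucleotide pools, had the same order at a smaller size, with 30.0 FPKM in shLuc (27.1 to 32.8), 23.7 FPKM in shGFP (21.2 to 26.3), and 29.8 and 32.1 FPKM in the knockdown hairpins.

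Meg3, an imprinted long noncoding RNA (listed as Gtl2, chromosome 12, 110781694 to 110809935 on mm9), was at 42.9 FPKM in shLuc (39.0 to 46.7) and 33.1 FPKM in shGFP (29.9 to 36.3), and lower still, at 24.5 and 27.4 FPKM, in the knockdown hairpins. Tmem47 was at 31.1 FPKM in shLuc (27.3 to 34.9) and 22.0 FPKM in shGFP (18.6 to 25.4), with 18.95 and 22.7 FPKM in the knockdown hairpins. Fut9, the fucosyltransferase that makes the SSEA-1 antigen of mouse embryonic stem cells, was at 4.17 FPKM (3.57 to 4.77) and 2.96 FPKM (2.48 to 3.44), with 2.75 and 2.38 FPKM. For Meg3, Tmem47 and Fut9, shLuc was the high value of the 4 hairpins. Zdbf2, an imprinted gene outside the list used below, was at 26.7 and 22.3 FPKM.

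Genes of other roles made up the rest of the set. Eif4a2, an RNA helicase of translation initiation, was at 89.2 FPKM in shLuc (82.9 to 95.6) and 75.7 FPKM in shGFP (69.6 to 81.9). Among membrane transport genes, the flippase gene Atp8a1 was at 2.13 and 1.22 FPKM and Atp13a3 at 38.2 and 32.0 FPKM (ratio 1.19). Scaffolds of the membrane and nuclear envelope included Ank3 (4.52 and 2.98 FPKM), Erbin (7.89 and 5.63 FPKM) and Syne2 (2.54 and 1.97 FPKM). Among regulators of transcription and the genome, the repressor Etv6 was at 12.8 and 10.01 FPKM, Mier1 at 19.5 and 15.4 FPKM, and Rev3l, the catalytic subunit of DNA polymerase zeta, at 7.86 and 6.22 FPKM. The remaining named genes were Thap6 (4.12 and 2.28 FPKM), Jakmip2 (3.39 and 1.95 FPKM), Stard13 (1.67 and 0.803 FPKM) and Proser1 (16.0 and 12.0 FPKM), and 1 entry without a name was at 22.6 and 14.9 FPKM. Just inside the boundary lay Mier1, whose bounds were 17.38 in both controls to 4 digits, and just outside it lay Psmd8, at 45.2 and 56.5 FPKM with bounds that both rounded to 50.2.

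**Figure D3:**
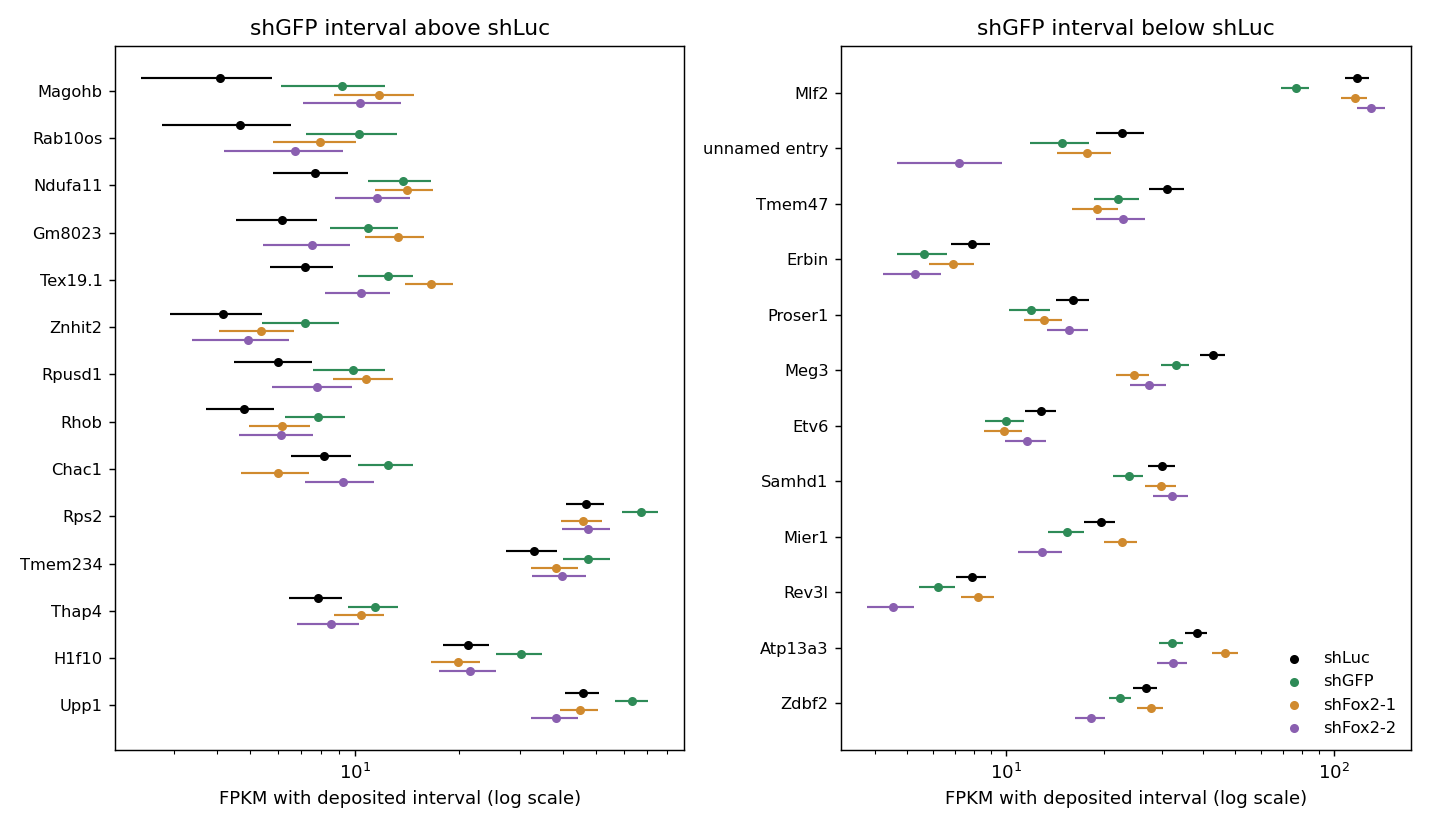
FPKM (log axis) with the deposited interval in shLuc, shGFP, shFox2-1 and shFox2-2 for the genes of at least 5 FPKM with the largest differences and values above 0 in both controls: 14 above in shGFP (left) and 12 below (right). The knockdown values of Magohb lie with shGFP, and those of Rps2, Mlf2 and Samhd1 lie with shLuc.

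Zero values made the largest nominal differences and were kept apart. Of the 12690 genes, 2 were listed at 0 in shLuc and 5 in shGFP, and 6 of these 7 had separate intervals, because an entry at 0 also had both bounds at 0. Knop1 was listed at 28.3 FPKM in shLuc and at 0 in shGFP, with 29.9 and 29.5 FPKM in the knockdown hairpins, and Gprc5b, in the same locus of 149 kb (chromosome 7, 125989274 to 126138669 on mm9), at 3.63 FPKM and at 0. The clone-named entry 3110082I17Rik was listed at 10.6 FPKM and at 0. In the other direction, the pseudogene entry Nsa2-ps1 was listed at 0 in shLuc and at 15.2 FPKM in shGFP, with 15.9 FPKM in shFox2-1 and 0 in shFox2-2, and Lrmp, named after its values were seen, at 0 and 2.23 FPKM. The predicted entry OTTMUSG00000012638 was also listed at 10.6 FPKM and at 0. All 6 entries shared a locus with at least 1 other entry, and 5 of them carried a low-data mark in the hairpin at 0, so no fold is given.

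The genes with separate intervals were compared with all expressed genes in features that did not define them. A locus shared with another entry was found for 12.6% of the genes above, 41.7% of the genes below and 15.0% of all expressed genes. A low-data mark in a control was found for 10.2%, 33.3% and 14.8%. At least 1 deposited Rbfox2 iCLIP cluster, a site where the tagged protein was crosslinked to RNA, lay on 79 of the 127 genes above (62.2%), on 17 of the 24 below (70.8%) and on 51.0% of expressed genes. That share was 59.8% among expressed genes of at least 10 FPKM and 51.7% among those of at least 50 FPKM. Whether level, locus length or mapping played a part in these shares was not tested.

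The span of the listed locus, from the first to the last base, differed most between the sets. Its median was 13.5 kb for genes above in shGFP, 103 kb for genes below and 19.7 kb for all expressed genes. Among the 24 genes below, 13 spanned over 100 kb, as did 10.4% of expressed genes. Most of these 13 were low. At 10 FPKM or more, 1 gene below spanned 100 to 200 kb and 1 over 200 kb, beside 2 and 1 above. Entries that share a locus, such as Knop1 and Gprc5b, each carry the span of the whole locus. The difference itself moved with span: its median in log2(FPKM + 1) was 0.10 for the 1341 genes under 2 kb, 0.06 for the 3248 genes from 20 to 50 kb and 0.02 for the 411 genes over 200 kb. Syne2, Ank3 and Etv6 are examples of long genes below in shGFP, and Rhob, Fth1 and Tex19.1 of short genes above.

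The Spearman correlation of span and difference was -0.168 over the 12690 genes and -0.195 over the 5441 genes of at least 10 FPKM, given as descriptions over genes of the same libraries. It was -0.227 over 3456 genes of at least 10 FPKM that were alone at their locus and were not predicted or pseudogene entries. In the same kind of ratio to shLuc, genes of at least 10 FPKM had medians of 1.09 under 2 kb and 1.04 over 200 kb in shGFP. In shFox2-1 the median ratio was 1.04 under 2 kb, 1.14 from 20 to 50 kb and 1.07 over 200 kb, and in shFox2-2 it lay between 0.953 and 1.02 in every class. These ratios share the shLuc values. With shGFP centred on the median gene of each span class, 26 genes lay above and 62 below. Over all expressed genes the class medians of the ratio of shGFP to shLuc lay between 1.01 and 1.09. This centring therefore only lowered shGFP, and all 24 genes of the set below had to stay separated. The part of RNA quality or library preparation in this relation was not tested.

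**Figure D4:**
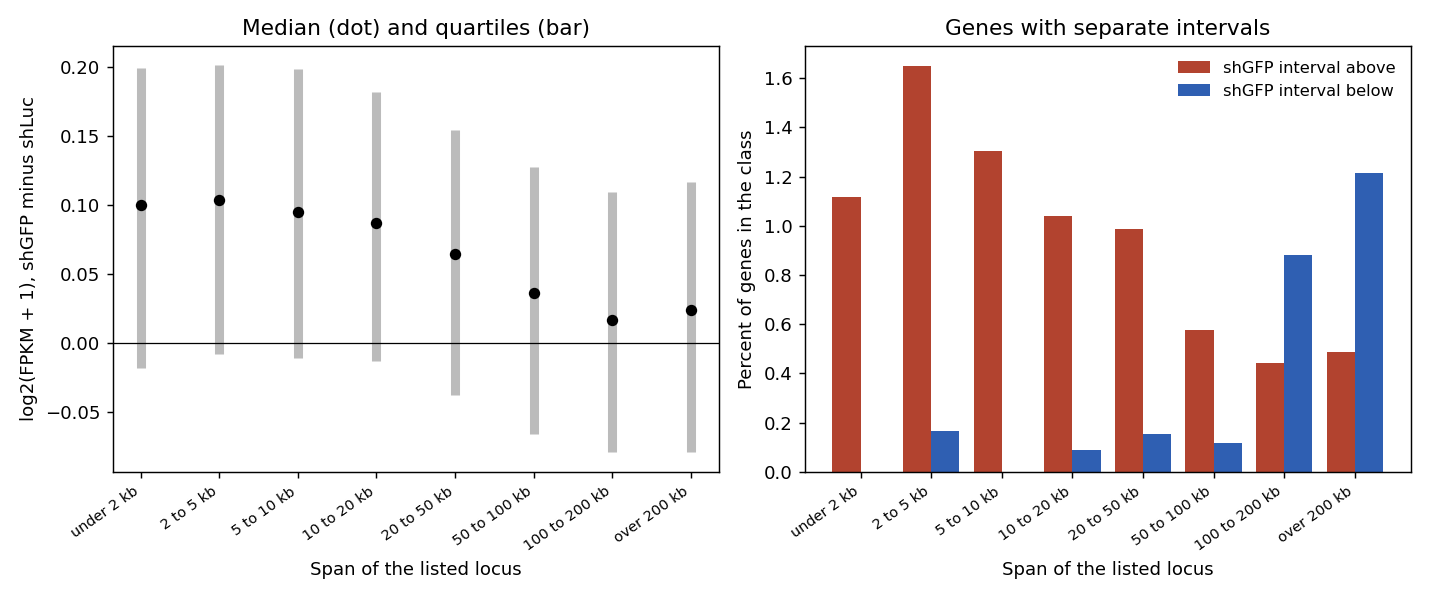
Left: median (dot) and quartiles (bar) of the difference in log2(FPKM + 1), shGFP minus shLuc, by span of the listed locus. Right: percent of genes in each span class whose shGFP interval lay above (red) or below (blue) that of shLuc. The median goes from 0.10 under 2 kb to 0.02 over 200 kb, and over 100 kb the genes below outnumber the genes above. They do not among genes of at least 10 FPKM: 2 lay above and 1 below from 100 to 200 kb, and 1 and 1 over 200 kb.

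The 39 gene lists with an expressed member were described by their counts and medians beside the values for all expressed genes, which were a median log2 difference of 0.07, 1.00% of genes above and 0.189% below. Of these lists, 21 held a gene with separate intervals and 25 had a median above that of all expressed genes. The share of genes higher in shGFP was 67.5% of all expressed genes, 76.2% at 10 FPKM or more and 85.6% at 50 FPKM or more. The proteasome, respiratory chain and chaperone lists had median levels of 66.4, 63.9 and 164 FPKM, so their counts stand beside the last share. In the proteasome and ubiquitin list 23 of 28 members were higher in shGFP, with a median of 0.19 and 3 genes above: Psmb6 (57.8 and 74.9 FPKM), Psmd3 (52.6 and 65.6 FPKM) and Psmd1 (59.7 and 73.2 FPKM), all proteasome subunits. In the nuclear-encoded respiratory chain 28 of 30 were higher, with a median of 0.17 and 3 genes above, the complex III subunit Uqcrc1 (56.2 and 69.4 FPKM) and the ATP synthase subunits Atp5a1 (172 and 202 FPKM) and Atp5b (297 and 348 FPKM). On the centred scale neither list had a gene above.

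The separations of chaperones, spliceosome proteins and Pcbp1 given next were all lost on the centred scale. Among chaperones 23 of 26 were higher in shGFP, with a median of 0.16 and 5 genes above, among them the chaperonin subunit Cct3 (100.2 and 123 FPKM), the HSP90 cochaperones Fkbp4 (140.1 and 167 FPKM) and Stip1 (88.8 and 105 FPKM), and the mitochondrial Hspa9 (89.3 and 106 FPKM). In the spliceosome core 28 of 32 were higher, with a median of 0.19 and 3 genes above: Prpf4 (8.56 and 11.1 FPKM), Sf3b3 (68.4 and 82.8 FPKM) and Prpf8 (60.8 and 71.3 FPKM). In contrast, the regulators of splicing lay near no difference on the deposited scale, which was under the median of 0.07 for all expressed genes. Of 11 SR proteins 5 were higher, with a median of 0.00, which became -0.08 on the centred scale, and no gene separated. Srsf1 was at 137 and 135 FPKM and Srsf2 at 176 and 176 FPKM. For 26 hnRNP proteins the median was 0.03, which became -0.05 on the centred scale, and only Pcbp1 was separated, at 130 and 154 FPKM. Hnrnpa2b1, at 333 and 329 FPKM, had the second narrowest interval of all genes above 50 FPKM.

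The signalling lists that depend on the medium were examined next. All 18 expressed members of the FGF, MAPK and immediate-early list were higher in shGFP, with a median of 0.21, and 1 was separated: Ccn1, a matrix protein, at 13.9 FPKM in shLuc (11.9 to 15.9) and 18.9 FPKM in shGFP (16.2 to 21.6). Etv5, a target of FGF signalling, was at 37.8 and 43.9 FPKM, and Fgf4, the ligand that embryonic stem cells secrete, at 29.8 and 32.6 FPKM, both with overlapping intervals. In the LIF and JAK-STAT list 9 of 12 were higher, with a median of 0.14, and the kinase gene Pim3 was separated at 24.0 FPKM (21.3 to 26.7) and 30.8 FPKM (27.3 to 34.3). Stat3, the transcription factor that LIF activates, was at 22.3 and 26.6 FPKM with overlapping intervals. Among BMP and Id genes 8 of 10 were higher, with a median of 0.17 and none separated: Id1 stood at 22.8 and 27.0 FPKM. Neither Ccn1 nor Pim3 was separated on the centred scale. The NODAL list was at 0.01, which became -0.05 on the centred scale.

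Lists of stress responses matter for a control hairpin, since infection and double-stranded RNA can set them off. None of the 17 expressed interferon-response genes and none of the 23 p53 targets had separate intervals, with medians of 0.16 and 0.15. Ifitm3, an antiviral membrane protein, was at 66.3 FPKM (58.2 to 74.4) and 81.8 FPKM (71.4 to 92.2), and Trp53 itself at 94.2 and 106 FPKM. The microRNA machinery, on which the hairpins draw, had a median of 0.07 with no gene separated, and Drosha stood at 55.2 and 58.0 FPKM. On the centred scale 1 member was below in shGFP, the Argonaute partner Tnrc6a (16.0 and 13.6 FPKM), named after its values were seen. Neither the counts nor these levels show that the responses were equal, because the intervals allow differences of about their own width.

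In the oxidative stress and metallothionein list 19 of 22 were higher in shGFP, with a median of 0.17 and 2 genes above, Fth1 and the glutathione peroxidase gene Gpx1 (73.1 and 93.1 FPKM), of which Fth1 was kept on the centred scale.

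The list of ATF4 targets and the unfolded protein response also had 2 separated genes. ATF4 is a transcription factor made when amino acids are short or proteins misfold. It binds DNA with partners of the C/EBP family and switches on genes of amino acid supply. Atf4 itself was at 79.9 FPKM in shLuc (72.6 to 87.2) and 100.0 FPKM in shGFP (91.4 to 108.7), against 77.9 and 77.4 FPKM in the knockdown hairpins. Chac1, an enzyme that breaks down glutathione, was at 8.16 FPKM (6.57 to 9.76) and 12.5 FPKM (10.2 to 14.8), against 6.03 and 9.28 FPKM. Both were highest in shGFP among the 4 hairpins, and both lost their separation on the centred scale. In all, 26 of 30 expressed members were higher in shGFP, with a median of 0.18, or 0.11 on the centred scale.

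Other members of this list had overlapping intervals. Among them were Eif4ebp1, an inhibitor of cap-dependent translation (133 and 159 FPKM), the pseudokinase gene Trib3 (9.96 and 13.7 FPKM), Psat1 of serine synthesis (92.8 and 109.7 FPKM), Ddit4 (15.4 and 19.8 FPKM) and the endoplasmic reticulum chaperone genes Calr (136 and 153 FPKM) and Hspa5 (92.4 and 102 FPKM). Asns, the asparagine synthetase gene, was nearly level at 117 FPKM (107 to 127) and 121 FPKM (111 to 131), and Slc7a3 (93.7 and 89.4 FPKM) and Shmt2 (80.3 and 76.0 FPKM) were lower in shGFP. Outside the list, Aars, the alanyl-tRNA synthetase gene (listed jointly with Exosc6), was separated on both scales at 87.6 FPKM (81.1 to 94.1) and 110.5 FPKM (103.3 to 118), against 95.6 and 91.5 FPKM in the knockdown hairpins. Aars, like Trib3, Psat1, Ddit4, Hspa5, Asns, Slc7a3 and Shmt2, is named here after its values were seen.

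The promoters of Chac1, Aars and Asns are shown as examples that hold the letters of the C/EBP-ATF composite element, TGATGNAAN on either strand. The intervals lay apart for Chac1 and Aars and overlapped for Asns. Herpud1, Nupr1 and Pycr1 of the list, named after their values were seen, also held the motif within 250 bases before their start, with overlapping intervals. Among list genes with the motif, only Chac1 was separated. Each line gives the 250 bases before the gene's start from RefSeq (GRCm38.p6), 5′ to 3′ on the gene's strand, with the match in capitals. They lie at chr2:119350992-119351241 on the plus strand, chr8:111033592-111033841 on the plus strand and chr6:7693210-7693459 on the minus strand.
Chac1: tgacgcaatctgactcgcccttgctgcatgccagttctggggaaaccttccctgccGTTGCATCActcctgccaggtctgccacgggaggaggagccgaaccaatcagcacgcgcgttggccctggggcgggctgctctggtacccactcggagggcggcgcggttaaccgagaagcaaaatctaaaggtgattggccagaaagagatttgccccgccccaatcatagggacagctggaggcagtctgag
Aars: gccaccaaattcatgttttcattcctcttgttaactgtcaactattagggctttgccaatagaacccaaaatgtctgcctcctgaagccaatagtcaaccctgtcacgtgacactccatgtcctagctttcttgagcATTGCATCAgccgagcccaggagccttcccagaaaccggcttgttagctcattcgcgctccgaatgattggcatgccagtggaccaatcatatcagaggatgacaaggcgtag
Asns: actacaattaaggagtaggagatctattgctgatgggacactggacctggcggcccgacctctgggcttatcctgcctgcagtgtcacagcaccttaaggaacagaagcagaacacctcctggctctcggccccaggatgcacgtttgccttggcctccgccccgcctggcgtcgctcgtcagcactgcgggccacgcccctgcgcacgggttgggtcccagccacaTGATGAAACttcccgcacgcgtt
The matches begin 194, 113 and 23 bases before the start. In windows of 300 bases (250 before to 50 after the start), this motif was found in 6 of 27 promoters of the list (22.2%), in 2.02% of the promoters of expressed genes and in 4.04% of all 27025 promoters in the table. Among genes above in shGFP it was in 2 of 94 (2.13%), and among genes below in 0 of 16. The shares in the separated genes thus lay near that of expressed genes at large. A match is a description of these letters and not of binding.

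Metabolic and growth lists were split. Glycolysis had a median of 0.09, with 22 of 27 higher and 2 genes above, Ldha (190 and 227 FPKM, against 161 and 176 FPKM in the knockdown hairpins) and Pkm (366 and 430.4 FPKM, against 312 and 331 FPKM). Cholesterol synthesis had a median of 0.04, which became -0.04 on the centred scale, and no separated gene. For the 78 genes of cytosolic ribosomal proteins the median was 0.06, which became -0.02 on the centred scale, and Rps2 and Rpl8 were among the genes above. In the actin and adhesion list 35 of 39 were higher, with a median of 0.12 and 4 genes above: Actb (428 and 504 FPKM), Pfn1 (249.8 and 304 FPKM), Lgals1 (28.5 and 39.1 FPKM) and Actn4. In DNA replication 28 of 33 were higher, with a median of 0.12 and the helicase subunits Mcm5 (75.4 and 89.3 FPKM) and Mcm6 (70.5 and 83.2 FPKM) above. Of these genes, only Rps2 and Actn4 were also separated on the centred scale.

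The noncoding and imprinted lists were those with a gene below in shGFP, along with translation factors through Eif4a2. Of the 10 expressed snoRNA host and long noncoding RNAs, 3 were higher in shGFP, and the median was -0.10. Meg3 was the separated member, while Snhg3 (36.2 and 31.0 FPKM) and Taf1d (36.4 and 34.5 FPKM) had overlapping intervals. Among 24 expressed imprinted genes 19 were higher in shGFP, with a median of 0.09, and Meg3 was again the only gene separated: Gnas stood at 153 and 155 FPKM and Snrpn at 94.8 and 96.8 FPKM. In the DNA methylation list Dnmt3l and Tdg (12.9 and 17.1 FPKM) were above, Tdg on the deposited scale only, and Dnmt3b, at 96.8 and 107 FPKM, was not separated.

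**Figure D5:**
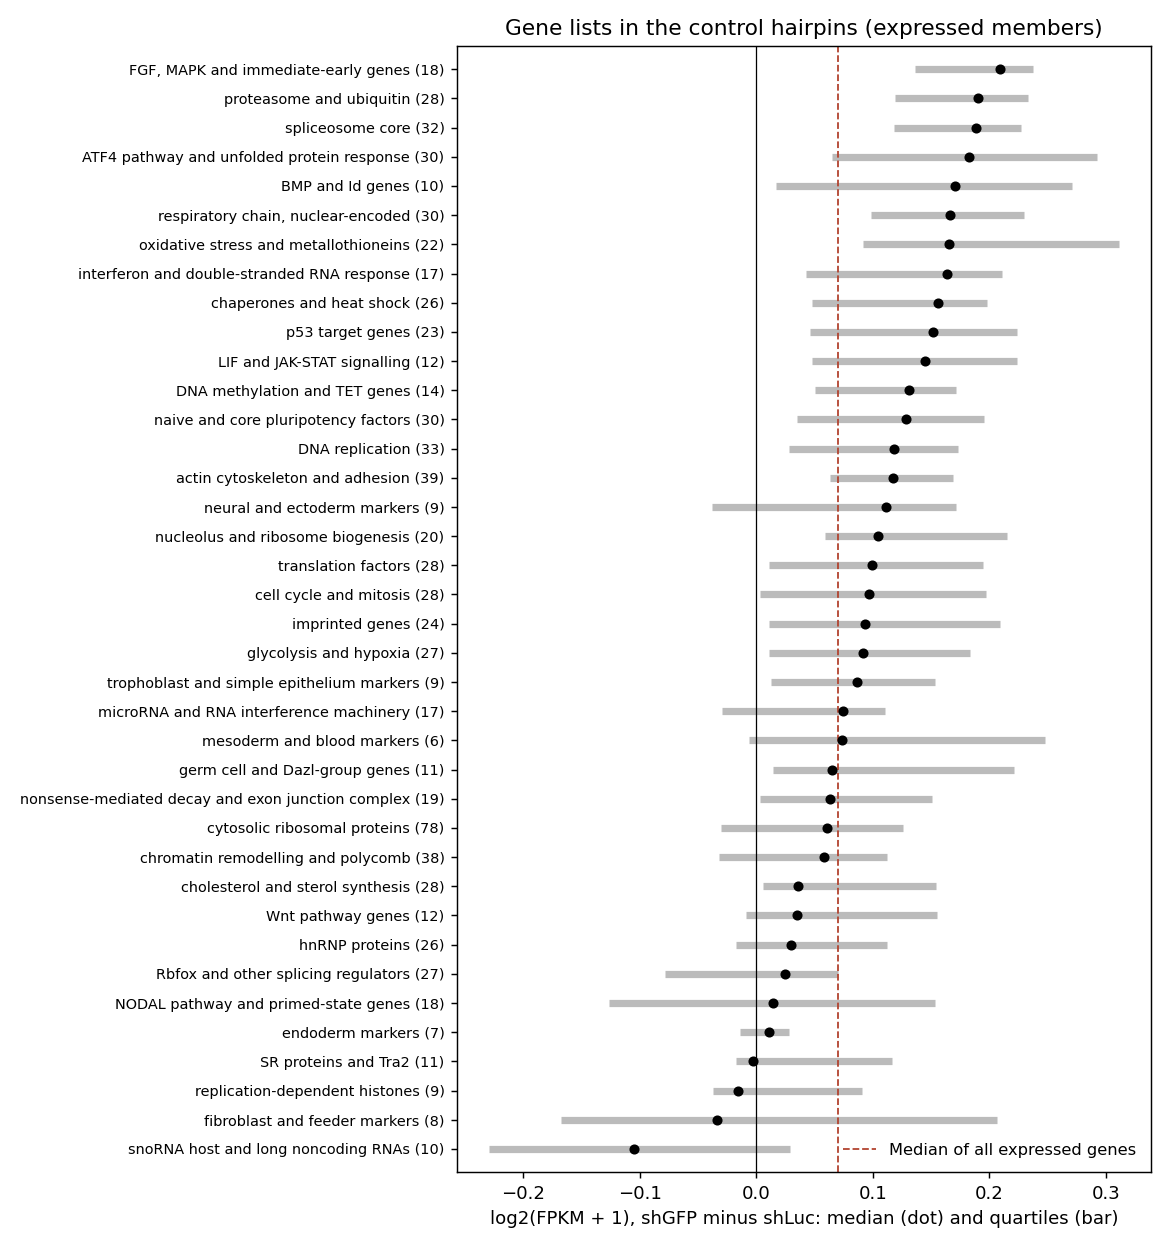
Median (dot) and quartiles (bar) of the difference in log2(FPKM + 1), shGFP minus shLuc, for the 38 gene lists with at least 5 expressed members (number in brackets). The dashed line marks the median of all expressed genes, 0.07, and the medians of 10 lists near it change sign on the centred scale, among them ribosomal proteins, hnRNP proteins and cholesterol synthesis.

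The knockdown hairpins gave levels for the same genes that had played no part in the choice. Of the 127 genes above in shGFP, 14 had intervals in both knockdown hairpins that overlapped shLuc and lay clear of shGFP: Rpl8, Pkm, Ldha, Fkbp4, Pcbp1, Utf1, Aars, Atf4, Atpif1, Rps2, Upp1, Aldh2, H1f10 and Cx3cl1. In 4 the knockdown intervals overlapped shGFP and lay clear of shLuc: Dnmt3l, Seh1l, Mta3 and Magohb. Of the 24 genes below, 5 stood with shLuc in this sense (Mlf2, Samhd1, Knop1, 3110082I17Rik and Gprc5b) and 3 with shGFP (Tmem47, Fut9 and Syne2). The other 109 and 16 genes met neither definition, among them Meg3, whose knockdown values both lay below both controls. All genes of these small counts are named, whether or not the naming rule takes them. The genes were chosen because their control intervals lay apart, and that choice itself favours siding with either control. No share of all expressed genes under these definitions stands beside the counts, so no excess can be read from them. A change due to the loss of Rbfox2 cannot be told apart from one control standing out.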

How the data were processed

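RNA-seq was measured in mouse V6.5 embryonic stem cells with 1 of 4 hairpins, 2 libraries each, of which the 4 control libraries were described here. The authors deposited 1 FPKM value per gene and hairpin, with a lower and an upper bound and a status, per the file headers. Per the submitters' processing notes, TopHat2 2.0, Cufflinks 2.1.1 and the build mm9 were used. Neither the labels nor the headers give the annotation, the scaling between hairpins or the confidence level of the bounds. Bounds lay symmetrically about the FPKM value wherever the lower bound was above 0, to within 1% of the value. Depth was unknown, so precision is given by the bounds only.

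Genes with a failed status in a control or a mean under 1 FPKM were left out. Differences were taken on log2(FPKM + 1), which understates those of low genes, with shGFP minus shLuc, and genes were called separated where the deposited intervals did not overlap. The scripts (Python 3.11.15, pandas 2.3.3, numpy 2.4.6) were tested on simulated data. A test across libraries was not possible with 1 pooled value per hairpin. Alternatives were centring on the median gene, an interval on the difference, wider intervals, fold rules, other minimums and pseudocounts, status and predicted entries. Listed names were matched to RefSeq symbols (GRCm38.p6) for 94.9% of expressed entries and 958 of 990 genes in 40 lists. The list of mitochondrially encoded genes had no entry in the table.

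The iCLIP cluster list, filtered by the authors against an untagged library, was used for the presence of a cluster on a gene. Clusters were assigned by the gene ID in their name, matched to a gene symbol, and entries without a matching symbol count as having none. The deposited coverage, fold and q-value columns of the cluster list were not used. The members and the gene lists were chosen with earlier results of these data known. The text names genes from these sets only, not all of them: the 25 most abundant genes, in each direction the 15 separated genes of at least 5 FPKM with the largest difference (all genes of a direction with few), up to 4 separated and the 3 most abundant members of a list, the genes with the narrowest and widest intervals, the markers and Rbfox2. Genes nearest to either side of the interval rule and of the FPKM minimum were also taken. Genes named otherwise are marked as chosen after their values were seen, or as named to complete a small count. One result is not reported here.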

Additional observations from a re-analysis of the deposited data

How the results depend on the processing

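No paired analysis was possible because the libraries of a hairpin, which carry replicate numbers in the labels, were pooled into 1 deposited value; for the same reason no library could be left out. The counts of 127 genes above and 24 below in shGFP became 23 and 69 with shGFP centred on the median gene, and 26 and 62 with centring within span classes, which was chosen after seeing the data. They were 680 and 111 when the interval on the difference had to leave out 0, 4 and 5 with intervals widened 1.5 times, 205 and 150 for a 1.5-fold difference whatever the intervals, and 16 and 11 when both were required. Both fold rules counted entries at 0 in 1 control. A minimum of 0.1 FPKM gave 221 and 105, and no filter gave 248 and 132. Entries alone at their locus numbered 111 above and 14 below, also added after seeing the data. The median log2 difference of 0.070 became 0.080 with a pseudocount of 0.1, 0.081 with 0.01, 0.088 at 5 FPKM or more, 0.057 at 0.1 FPKM or more, 0.047 with no filter and 0.077 with both statuses OK. The 100 most abundant genes, at 17.4% of summed FPKM, held 17.5% in shGFP alone, 18.95% with both statuses OK and 17.5% without predicted entries. Under centring, 24 of the 30 genes with the largest differences kept separate intervals and 6 lost them. All 6 were among the 15 genes above, because centring only lowers shGFP and the 15 below could not lose theirs. Under the interval on the difference all 30 kept their call, which was certain, because separate intervals always meet that rule. The medians of 10 lists became negative under centring: -0.05 for NODAL, -0.04 for Wnt, -0.04 for endoderm, -0.04 for cholesterol synthesis, -0.02 for ribosomal proteins, -0.05 for hnRNP proteins, -0.05 for other splicing regulators, -0.00 for the microRNA machinery, -0.01 for nonsense-mediated decay and -0.02 for chromatin genes. Centring divides shGFP by 1 constant, and beyond that the cause was not tested. Without counts, depth set no limit that could be computed.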

Other observations

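On the centred scale 45 genes lay below in shGFP that had overlapping intervals on the deposited scale. They had a median level of 16.7 FPKM and a median locus span of 62.7 kb, and 24 of them spanned over 50 kb. The most abundant were Npm1, a nucleolar chaperone of ribosome assembly, at 279 FPKM in shLuc and 253 FPKM in shGFP, and the splicing cofactor Srrm2, at 109 and 99.4 FPKM. The gene lists with more than 1 such gene were the hnRNP proteins and the other splicing regulators, with 3 of 26 and 3 of 27 expressed members, against 0.355% of all expressed genes. Beside Srrm2, the genes counted in these lists were Hnrnpa1 (68.4 and 58.8 FPKM), Hnrnpdl (86.7 and 78.0 FPKM), Rbm39 (80.0 and 70.0 FPKM), Tia1 (19.6 and 16.3 FPKM) and Ptbp3 (18.5 and 14.9 FPKM). They were named after their values were seen, and no test was made.

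Interval width differed between genes of like level. Among genes above 50 FPKM, the mean distance from value to bound was 5.50% of the value for Eif4g1, the scaffold of the cap-binding complex, and 18.5% for Tomm7, a small subunit of the mitochondrial import pore. The widest interval, 30.2%, belonged to the pseudogene entry Gm15148, whose listed locus spans 156 bases.

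Among genes at the other end of the expressed range, Rom1 was the last to reach the minimum, with 0.870 FPKM in shLuc and 1.13 FPKM in shGFP. Tanc2 was the first to miss it, with 1.07 and 0.928 FPKM.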
